A study of Mus musculus with 7 samples.

Results

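The endoplasmic reticulum (ER) stress and heat shock chaperone genes were followed in liver RNA of diet-induced obese mice with and without bitter melon juice. The set holds 38 genes of the 33426 Ensembl gene IDs on the arrays, chosen by identifier from a list that pairs each ID with a symbol. It covers the transcription factors of the unfolded protein response, the chaperones and folding enzymes of the ER, ER-associated degradation, targets of the ATF4 branch, and the cytosolic and mitochondrial heat shock proteins. Of the 38 members, 36 entered the tests. Manf and Hspa1a were among the dimmest 40% of IDs, with means below the log2 value of 2.74 that marked the filter, and are described without a place in the tested counts.

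All 7 mice were wild-type male C57BL/6J, an inbred strain that becomes obese on fatty food. All were fed a 60% kcal fat diet, starting at 4 weeks of age and lasting to 16 weeks, and then for 40 more days. In the DIO group (diet-induced obesity, 3 mice) nothing but the diet is described. In the BMJ + DIO group (4 mice) a freeze-dried extract of bitter melon juice, from the fruit of Momordica charantia, was given daily by oral gavage at 200 mg per kg body weight over those 40 days. The labels give an age of 16 weeks, which is the end of the first feeding period. The protocol adds 40 days, so the labels do not settle the age at collection. The comparison therefore asks how the livers of obese mice differed with the juice, and juice and gavage cannot be told apart. No lean mice were analysed here. Each mouse gave 1 array of snap-frozen liver, and each array holds 1 log2 value per gene.

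The unfolded protein response adjusts the folding capacity of the ER to the load of new secretory and membrane proteins. The sensors IRE1, PERK and ATF6 are held inactive by the chaperone BiP. When unfolded proteins occupy BiP, IRE1 splices Xbp1 messenger RNA, PERK phosphorylates eIF2alpha so that Atf4 is translated, and ATF6 is cut to release a transcription factor. Spliced XBP1 and cleaved ATF6 raise chaperone and degradation genes, and ATF4 raises amino acid and CHOP-related genes. The heat shock response is the cytosolic counterpart, in which the factor HSF1 induces Hsp70, its J-domain partners, Hsp90 and small heat shock proteins. Hepatocytes secrete large amounts of protein, and ER stress in fatty liver has been widely studied. Splicing, cleavage, phosphorylation and translation are not read by a gene-level array value, which gives the abundance of the messenger RNA alone.

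No member reached 0.05 in the moderated test of limma after Benjamini-Hochberg adjustment, and neither did any other ID (0% of 20055 tested). At an unadjusted p under 0.05 in the same test, 4 of the 36 tested members averaged lower in BMJ + DIO, against 2.78% of all tested IDs, and 1 averaged higher, against 3.63%. The 4 were Hspa1b, Sdf2l1, Hspa5 and Ppp1r15a, and the 1 was Hspd1. The means of 23 of the 36 were lower with the juice, against 43.7% of all tested IDs. The median difference, BMJ + DIO minus DIO, was -0.06 over the tested members and 0.02 over all tested IDs on the log2 scale. In whole liver, fewer cells of a type and less RNA per cell cannot be told apart.

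The arrays themselves were uneven, which bears on each value below. DIO replicate 3 had a mean correlation of 0.924 with the other arrays, while the other 6 lay between 0.964 and 0.969. Its bright IDs read low: over the 1489 tested IDs that averaged at least 7 on the log2 scale, the median deviation (array value minus the 7-array median of the ID) came to -0.57 there, to -0.13 and 0.10 in DIO replicates 2 and 1, and to 0.00 to 0.09 in the BMJ + DIO arrays. Exact repeats of a value on several arrays occur in 15 of the 38 members (39.5%) and in 59.0% of all tested IDs. Markers of hepatocytes and of other liver cells were not analysed here, since the symbols at hand cover the 38 members alone.

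Hspa1b, which encodes the stress-inducible cytosolic Hsp70 (ENSMUSG00000090877, chr17:34956429-34959238 in GRCm38.p6), had the widest gap between the groups of all members. Its log2 values were 6.54, 5.67 and 5.73 in DIO replicates 1 to 3, and 4.12, 4.88, 4.98 and 4.95 in BMJ + DIO replicates 1 to 4. All 4 livers with the juice lay below all 3 livers without it, with DIO replicate 1 the highest and BMJ + DIO replicate 1 the lowest. The mean was 5.98 ± 0.48 without the juice (SD, n = 3) and 4.73 ± 0.41 with it (SD, n = 4), which is 2.37-fold lower with the juice. On the log2 scale the group difference was -1.25 (standard error 0.31, 95% interval -2.00 to -0.50). The moderated test of limma gave an unadjusted p of 0.00661 and an adjusted p of 0.571. Groups without overlap in this direction were found for 2 of the 36 tested members and for 1.68% of all tested IDs. In 17 of 18 other fits the unadjusted p of limma stayed under 0.05, with differences from -1.54 to -0.95, and the exception was the limma fit with the replicate number as a block (-1.32, unadjusted p = 0.0587).

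Hspa1a lies next to Hspa1b on chromosome 17 (chr17:34969359-34972156) and encodes a nearly identical Hsp70. Its array values were low and flat, at 2.87, 2.65 and 2.82 in DIO and 2.76, 2.94, 2.68 and 2.44 in BMJ + DIO. The groups overlapped, with means of 2.78 ± 0.12 and 2.71 ± 0.21 and a difference of -0.07 (limma without the filter, unadjusted p = 0.589, adjusted p = 0.821). Because the 2 genes share most of their sequence, and the array's probes were not examined here, a value under either symbol may hold signal of both.

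The promoter window of Hspa1b is printed because this gene differed most. That of Hspe1 is printed because it holds a heat shock element (HSE) that a window of Hspd1, described below, also holds. Windows run 5′ to 3′ from 250 bases before to 50 bases after a transcription start in RefSeq, build GRCm38.p6. Capitals mark HSE matches, searched on both strands as GAA, any 2 bases, TTC, any 2 bases, GAA, the arrangement of inverted GAA units that HSF1 trimers bind.
Hspa1b, chr17:34959189-34959488, minus strand: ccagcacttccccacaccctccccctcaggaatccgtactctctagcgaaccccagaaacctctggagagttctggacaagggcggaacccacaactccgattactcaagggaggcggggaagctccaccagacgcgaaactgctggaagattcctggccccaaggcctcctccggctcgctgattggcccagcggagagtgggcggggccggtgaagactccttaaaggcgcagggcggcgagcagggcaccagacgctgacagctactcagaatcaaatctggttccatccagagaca
Hspe1, chr1:55087898-55088197, plus strand: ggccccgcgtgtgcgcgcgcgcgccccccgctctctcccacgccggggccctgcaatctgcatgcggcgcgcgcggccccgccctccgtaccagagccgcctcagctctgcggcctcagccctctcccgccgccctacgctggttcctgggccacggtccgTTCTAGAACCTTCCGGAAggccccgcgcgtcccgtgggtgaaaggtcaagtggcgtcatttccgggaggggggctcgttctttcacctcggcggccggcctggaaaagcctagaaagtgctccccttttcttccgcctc
The Hspa1b window holds no exact run of these letters, and sites that depart from them were not searched for. In the Hspe1 window 2 matches overlap, at chr1:55088059-55088071 and chr1:55088064-55088076. The same bases lie inside the annotated span of Hspd1, which is transcribed the other way and overlaps Hspe1. They fall in the Hspd1 window at chr1:55087883-55088182, while the Hspd1 window at chr1:55088194-55088493 holds no match. Hsph1 also has a match, so that 3 of the 32 members with a window hold an HSE, against 0.662% of 27025 genes. This share is background to the set and not a result of the comparison. Atf6, Hyou1, Manf, Hspa8, Hsp90aa1 and Hsp90ab1 had no window and were not searched.

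The other cytosolic heat shock genes showed smaller differences. Across the 11 of them, Hspa1b and Hspa1a included, 8 means were lower and 3 higher in BMJ + DIO, against 43.7% of all tested IDs lower. In limma 1 of the 10 tested averaged lower at an unadjusted p under 0.05, against 2.78% of all tested IDs. Hspb1, a small heat shock protein that holds unfolding proteins in solution, read 3.28, 4.05 and 4.13 in DIO and 3.30, 3.54, 3.50 and 3.65 in BMJ + DIO. DIO replicates 2 and 3 were the highest, while DIO replicate 1 was the lowest of all 7 livers, so the groups overlapped (difference -0.32, 95% interval -0.86 to 0.22). The Hspb1 difference was -0.59 without DIO replicate 1 (limma unadjusted p = 0.00248, adjusted p = 0.0884) and -0.17 without DIO replicate 3 (limma unadjusted p = 0.514). Without DIO replicate 1, small p values were common: 8.62% of all tested IDs averaged lower at an unadjusted p under 0.05, and 20.4% higher. Hspa8, the constitutive Hsp70, read 6.64 in DIO replicate 1 and between 5.10 and 5.71 in the other 6 livers, and its difference of -0.19 has an interval of -1.04 to 0.66. Dnajb1, the main J-domain partner of inducible Hsp70, differed by -0.25 (interval -0.78 to 0.29). The J-domain protein Dnaja1 differed by 0.08 and the nucleotide exchange factor Hsph1 by -0.05, with overlapping groups for each.

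Hsp90aa1, the stress-inducible Hsp90, read 3.44, 3.53 and 3.29 in DIO and 3.26, 3.32, 3.49 and 3.27 in BMJ + DIO. The groups overlapped, and the difference was -0.08 (interval -0.29 to 0.12, limma adjusted p = 0.630). These values were dim, with a mean of 3.37 over all livers. Like Hspb1, Hsp90aa1 was among the dimmest 60% of IDs, which an alternative filter left out. The constitutive Hsp90ab1 differed by 0.00, with an interval of -0.39 to 0.39. Bag3 and Hspb8, partners in the removal of misfolded proteins by autophagy, differed by -0.13 and 0.15, with intervals that include 0. Among the 11 cytosolic genes, Hspa1b was the only member whose groups did not overlap in the deposited values.

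The ER chaperones and their co-chaperones split into genes with lower means and genes near or above 0. Of the 11, 7 means were lower and 4 higher with the juice, against 43.7% of all tested IDs lower. In limma 2 of the 10 tested averaged lower at an unadjusted p under 0.05, against 2.78% of all tested IDs. Sdf2l1 and Hspa5 were those 2, and Creld2 and Hyou1 followed in size.

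Sdf2l1 encodes an ER protein that works with the co-chaperone ERdj3 and BiP (ENSMUSG00000022769, chr16:17130138-17132383). Its values were 7.46, 7.58 and 7.11 in DIO and 6.41, 7.08, 6.81 and 6.96 in BMJ + DIO. The groups did not overlap, but DIO replicate 3 and BMJ + DIO replicate 2 lay close together. The mean was 7.38 ± 0.25 (SD, n = 3) against 6.82 ± 0.29 (SD, n = 4), a level 1.48-fold lower with the juice (difference -0.57, standard error 0.19, interval -1.04 to -0.10, limma unadjusted p = 0.0257, adjusted p = 0.571). The unadjusted p stayed under 0.05 in 15 of 18 other fits of limma, but it was 0.0762 or 0.0888 when the first or the second DIO liver was left out and 0.0560 when BMJ + DIO replicate 3 was.

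Hspa5 encodes BiP, the Hsp70 of the ER and the regulator of all 3 stress sensors (ENSMUSG00000026864, chr2:34772090-34776529). It read 9.38, 9.23 and 8.84 in DIO and 8.62, 8.51, 8.92 and 8.83 in BMJ + DIO. DIO replicates 1 and 2 were above all other livers, and DIO replicate 3 lay among the livers with the juice. The mean was 9.15 ± 0.28 (SD, n = 3) against 8.72 ± 0.19 (SD, n = 4), lower by 1.35-fold with the juice (difference -0.43, standard error 0.16, interval -0.83 to -0.03, limma unadjusted p = 0.0384, adjusted p = 0.571). The unadjusted p of limma stayed under 0.05 in 11 of 18 other fits. It was 0.123 without DIO replicate 1 (difference -0.32) and 0.00871 without DIO replicate 3 (difference -0.59).

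Creld2, a stress-induced ER protein that can also be secreted, read 8.17, 8.15 and 7.09 in DIO and 6.95, 7.36, 7.75 and 7.49 in BMJ + DIO. As for Hspa5, DIO replicates 1 and 2 were the highest livers and DIO replicate 3 lay among the others. The difference was -0.42 (interval -1.21 to 0.38, limma adjusted p = 0.582), and -0.77 without DIO replicate 3. Hyou1, the nucleotide exchange factor of BiP, differed by -0.24 (interval -0.53 to 0.04) and by -0.36 without that array. Manf, a secreted BiP cofactor, was dim, with values of 2.57 to 3.18 in DIO and 2.32 to 2.74 in BMJ + DIO.

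**Figure D1:**
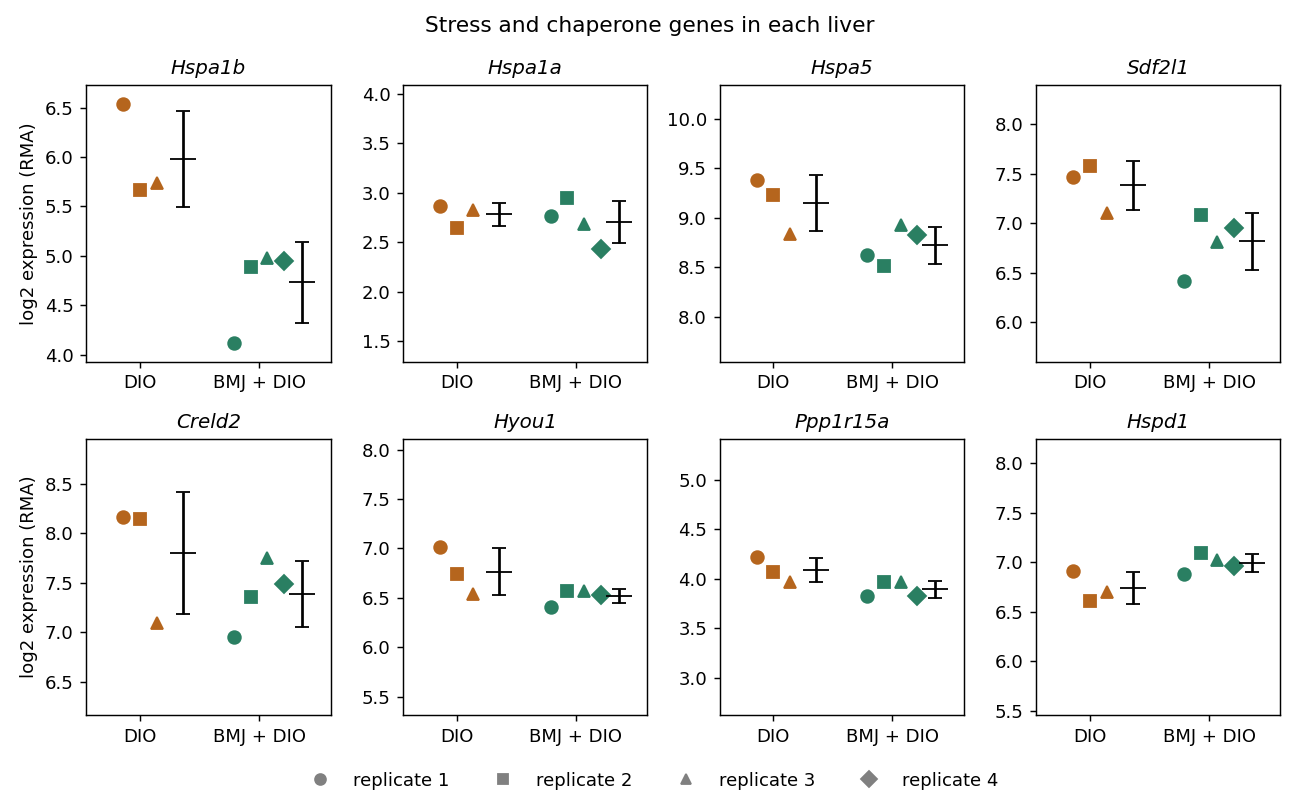
Log2 expression (RMA, vertical axes, each spanning the same range of log2 units) of 8 genes in the 3 DIO and 4 BMJ + DIO livers. Each symbol is a liver, and the dash with bars is the group mean ± SD. Hspa1b and Sdf2l1 have groups without overlap, Hspa1a is flat, and in the Hspa5 and Creld2 panels DIO replicate 3 (triangle) lies with the BMJ + DIO livers.

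The remaining ER chaperones differed by -0.03 to 0.21 in the deposited values with all 7 livers. Hsp90b1, the ER form of Hsp90 known as GRP94, averaged 9.04 ± 0.47 in DIO and 9.03 ± 0.025 in BMJ + DIO, a difference of -0.01. The lectin chaperones, which hold glycoproteins during folding, differed by -0.03 for Calr and 0.21 for Canx. Canx read 10.08, 9.80 and 9.36 in DIO and 9.90, 9.99, 9.94 and 9.98 in BMJ + DIO, so that the 4 livers with the juice sat close together inside the spread of the 3 without it. The J-domain co-chaperones of BiP differed by 0.18 for Dnajb9, 0.18 for Dnajc3 and 0.03 for Dnajb11. Dnajb9 had the largest SD in DIO of the 38 members, 0.99, with values of 9.40, 8.73 and 7.45 in DIO against 8.44, 8.42, 9.14 and 8.84 in BMJ + DIO. Dnajb11 held the identical value of 5.98 in 4 livers. Without DIO replicate 3 the differences were -0.26 for Hsp90b1, -0.12 for Calr, 0.02 for Canx, -0.35 for Dnajb9, -0.03 for Dnajc3 and -0.22 for Dnajb11. None of these 6 had an unadjusted p under 0.05 in limma without that array, the smallest being 0.0559 for Hsp90b1. Of the 11 ER chaperone and co-chaperone means, 10 were lower with the juice without that array. The median difference over all tested IDs was then 0.00, and their share of lower means was not computed. Whether these 6 genes differ from Sdf2l1, Hspa5, Creld2 and Hyou1 was not tested.

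The protein disulfide isomerases, which form and rearrange disulfide bonds in the ER, differed by -0.13 for Pdia4, -0.04 for Pdia6 and 0.26 for Pdia3. Pdia3, the largest positive difference among the 38 members, read 9.91, 9.36 and 8.52 in DIO and 9.39, 9.64, 9.54 and 9.54 in BMJ + DIO. The groups overlapped, and without DIO replicate 3 the difference was -0.11. The degradation genes Herpud1, a scaffold of the retrotranslocation machinery, and Edem1, which directs misfolded glycoproteins to it, differed by -0.04 and 0.11. None of these 5 genes had an unadjusted p under 0.05 in limma.

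The transcription factors above these genes had no clear direction. Of the 5, 3 means were lower and 2 higher with the juice, against 43.7% of all tested IDs lower. None had an unadjusted p under 0.05 in limma. Ddit3, which encodes the pro-apoptotic factor CHOP, read 4.87, 4.41 and 4.53 in DIO and 4.19, 4.25, 4.49 and 4.52 in BMJ + DIO. The upper livers with the juice overlapped the lower livers without it (difference -0.24, interval -0.59 to 0.10, adjusted p = 0.571). Atf4 read 5.27, 4.97 and 4.84 in DIO and 4.65, 4.99, 4.99 and 5.20 in BMJ + DIO. Its groups overlapped, with a difference of -0.07 (interval -0.46 to 0.32). Atf3, induced downstream of ATF4, differed by -0.19.

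Xbp1 read 8.04, 7.99 and 7.61 in DIO and 7.98, 7.99, 7.99 and 8.11 in BMJ + DIO. DIO replicate 3 was the lowest liver and the others were nearly level (difference 0.14, interval -0.14 to 0.41, limma adjusted p = 0.586). Atf6 read 7.21, 6.98 and 6.45 in DIO and 6.91, 7.11, 7.18 and 7.33 in BMJ + DIO, again with DIO replicate 3 lowest. Its difference of 0.25 (interval -0.23 to 0.73) was 0.04 without that array.

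Among the stress response targets of the ATF4 branch, Ppp1r15a had the smallest p. It encodes GADD34, which restores translation by dephosphorylating eIF2alpha. It read 4.21, 4.07 and 3.97 in DIO and 3.82, 3.97, 3.97 and 3.82 in BMJ + DIO. The groups met at a value shared by DIO replicate 3 and 2 livers with the juice, and the difference was small, at -0.19 (interval -0.38 to -0.0007, limma unadjusted p = 0.0494, adjusted p = 0.571). The unadjusted p stayed under 0.05 in 4 of 18 other fits of limma, and reached 0.238 with the replicate block. Asns, the asparagine synthetase, differed by -0.10, Sesn2, a leucine-sensing inhibitor of mTORC1, by -0.07, and Chac1, which degrades glutathione, by 0.05. Chac1 was nearly constant in DIO, at 5.83, 5.84 and 5.83.

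On the deposited values, the group means of the mitochondrial chaperonin pair differed in opposite directions. Hspd1, the Hsp60 barrel (ENSMUSG00000025980, chr1:55077833-55088243), read 6.91, 6.60 and 6.70 in DIO and 6.88, 7.10, 7.02 and 6.96 in BMJ + DIO. BMJ + DIO replicate 1 was the only liver with the juice below DIO replicate 1. The difference was 0.25 (standard error 0.09, interval 0.03 to 0.47, limma unadjusted p = 0.0317, adjusted p = 0.571), and after cyclic loess, which removes differences that follow brightness, it was 0.03. With cyclic loess without DIO replicate 1 or 2 the Hspd1 difference was -0.04 and -0.07. On the deposited values, the median difference over 665 tested IDs of like brightness (average 6.74) was 0.23. The unadjusted p of Hspd1 stayed under 0.05 in 8 of 18 other fits of limma. Hspe1, the Hsp10 lid that is transcribed from the shared region printed above, differed by -0.23 (interval -0.48 to 0.03). The difference between the 2 genes was not tested.

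**Figure D2:**
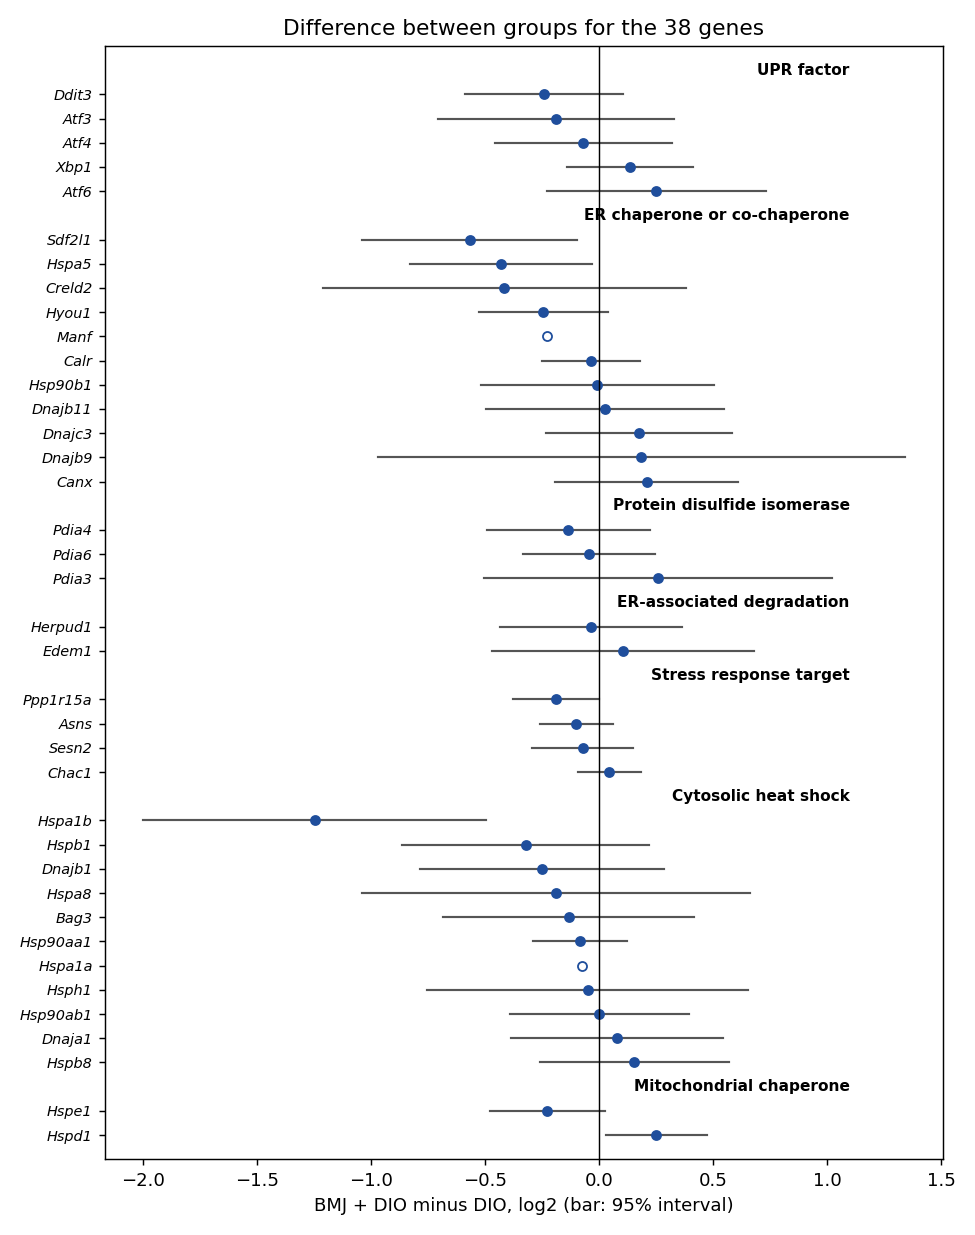
Difference between the group means, BMJ + DIO minus DIO, in log2 units for the 38 genes by role. Filled points are tested genes with 95% intervals from limma, and open points are the 2 dim genes outside the test. Intervals of Hspa1b, Sdf2l1, Hspa5 and Ppp1r15a lie below 0, that of Hspd1 above 0, and the other intervals include 0.

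The livers took different parts in these means. DIO replicate 1 was the highest of the 7 livers for 25 of the 38 members, whereas it was highest for 21.4% of all tested IDs. BMJ + DIO replicate 1 was the lowest for 14 members, against 8.49% of all tested IDs. DIO replicate 3 was the lowest for 16 members, close to its share of 42.0% over all tested IDs. The median deviation over the 38 members was 0.28 in DIO replicate 1, 0.00 in replicate 2 and -0.23 in replicate 3. In BMJ + DIO it was -0.15 in replicate 1 and 0.00 in replicates 2 to 4. The ER chaperones ranged widest, from 0.42 in DIO replicate 1 to -0.39 in DIO replicate 3, while the targets of the ATF4 branch stayed between -0.07 and 0.12 in all 7 livers.

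The 3 DIO livers thus differed more among themselves than the 4 BMJ + DIO livers did. The SD over livers was larger in DIO for 30 of the 38 members (78.9%) and for 72.4% of all tested IDs. The median ratio of the SDs, DIO over BMJ + DIO, was 1.82 for the members and 1.94 for all tested IDs, so the wider spread is shared with the arrays as a whole.

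**Figure D3:**
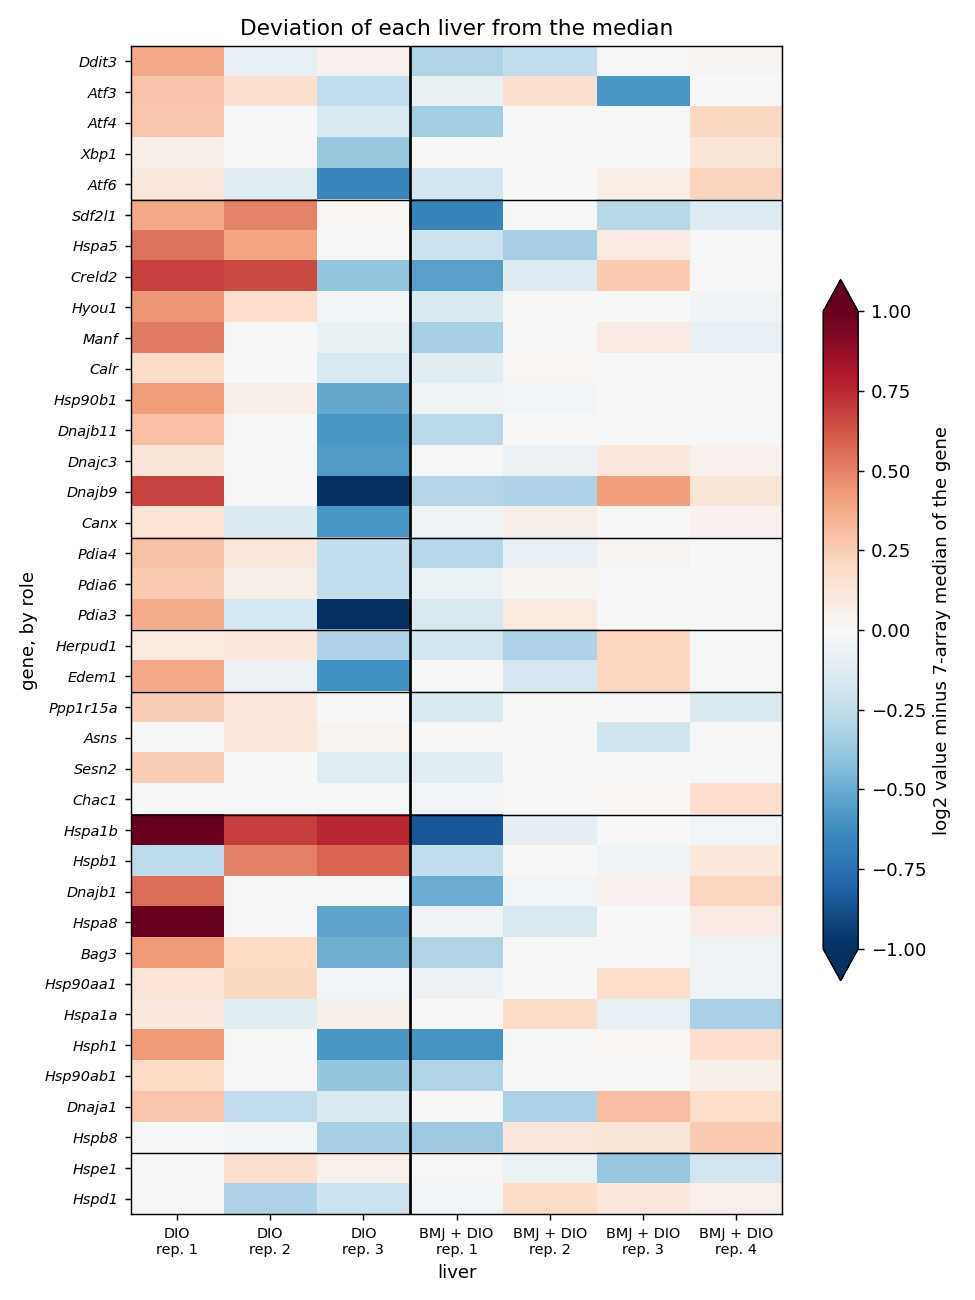
Log2 value of each gene in each liver minus that gene's median over the 7 livers (colour scale from -1 to 1, values beyond drawn at the ends). Rows are the 38 genes by role, columns the livers, with a line between DIO and BMJ + DIO. DIO replicate 1 is above the median in most rows, DIO replicate 3 below it in most ER rows but above it for Hspa1b and Hspb1, and the columns of BMJ + DIO replicates 2 to 4 are pale.

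Set beside IDs of like brightness, the members sat low. Among tested IDs that averaged at least 7 on the log2 scale, the median difference was 0.22 over 1489 IDs and 0.00 over the 17 members, and the mean was lower with the juice for 15.0% of the IDs and for 8 of the 17 members. Between 5 and 7, the medians were 0.16 over 5135 IDs and -0.16 over 10 members, and 20.2% of the IDs and 7 of the 10 members were lower. Between 3 and 5, the medians were -0.02 and -0.10, and 54.7% of the IDs and 8 of the 9 members were lower. These shares are descriptions, since genes of a pathway are not independent of each other.

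**Figure D4:**
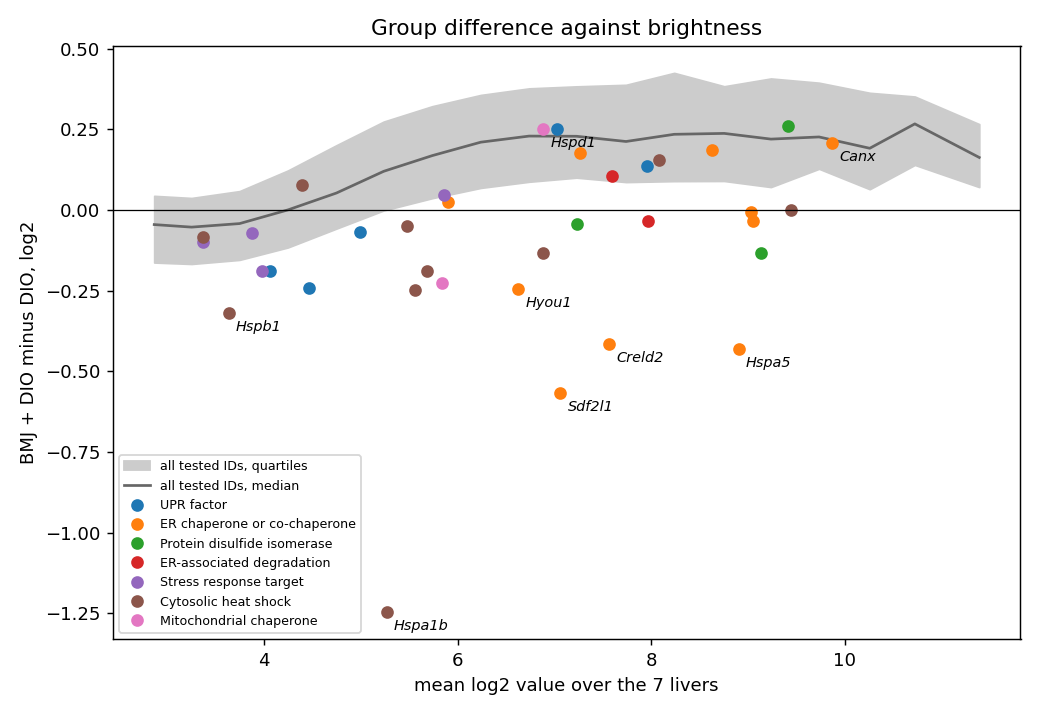
Difference between group means (BMJ + DIO minus DIO, log2) against the mean log2 value over the 7 livers. Points are the 36 tested genes coloured by role, and the grey line and band give the median and quartiles of all 20055 tested IDs in classes of brightness. The band lies above 0 for bright IDs, while Hspa5, Creld2, Sdf2l1, Hyou1 and Hspa1b lie well under it.

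Normalizations that take out this dependence on brightness placed more members on the lower side. After cyclic loess, 11 of the 36 tested members averaged lower at an unadjusted p under 0.05 in limma, against 4.09% of all tested IDs, and 0 averaged higher, against 4.89%. They were Hspa1b, Sdf2l1, Hspa5, Creld2, Hyou1, Hsp90b1, Calr, Pdia4, Pdia6, Hsp90ab1 and Bag3, of which 6 belong to the 10 tested ER chaperones and co-chaperones. After quantile normalization 12 averaged lower, against 3.7%, namely the same 11 and Dnajb1. No member passed the adjusted threshold in either fit (smallest adjusted p 0.405 and 0.311). In the cyclic loess fit Hspa5 differed by -0.69, Sdf2l1 by -0.80, Creld2 by -0.65 and Hyou1 by -0.46.

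Single control livers moved these counts. On the deposited values, 8 members averaged lower at an unadjusted p under 0.05 without DIO replicate 3 (1.84% of all tested IDs), 2 without DIO replicate 1 (8.62%) and 1 without DIO replicate 2 (1.42%). In the same 3 fits 0, 2 and 0 members averaged higher, against 1.41%, 20.4% and 1.32% of all tested IDs. Without DIO replicate 1 the means of 14 of the 36 tested members were lower, and the median difference was 0.05 for the members and 0.05 for all tested IDs. After cyclic loess the count was 15 without DIO replicate 1 (13.1%), 12 without DIO replicate 2 (2.72%) and 12 without DIO replicate 3 (3.48%), and the median difference over the tested members lay between -0.22 and -0.18 in the 3 fits. Those 3 fits were added after the data were seen. Leaving out single livers put the difference on both sides of 0 for 17 of the 38 members. The sign turned for 9 without DIO replicate 1, Hspa8 and Bag3 among them, and for 6 without DIO replicate 3, Dnajb9, Dnajb11, Dnajc3, Pdia3, Edem1 and Hsp90ab1. These counts of turned signs were not made over all tested IDs. With array weights estimated gene by gene, 7 of the 36 tested members passed the adjusted threshold in limma, against 18.5% of all tested IDs, a share near that background. At an unadjusted p under 0.05 the weighted fit had 12 members lower (13.2% of IDs) and 2 higher (22.3%). Median centring had 2 lower (1.9%) and 1 higher (4.4%), and the replicate block 1 lower (1.28%) and 0 higher (0.962%). Whether the dependence on brightness is technical was not tested, and cyclic loess also removes any real difference that follows it.

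Several of the ER genes share a promoter element, and the sequences are given for the members that hold it. The ER stress response element (ERSE), bound by NF-Y and by cleaved ATF6 or XBP1, was searched in the RefSeq windows on both strands as CCAAT, any 9 bases, CCACG. It was found in 7 of the 32 members with a window and in 0.137% of 27025 genes. The element was first described in promoters of this kind, so its frequency here is background to the set and not a result of the comparison. Capitals mark the CCAAT and CCACG parts, and each site is written in the direction that reads CCAAT first.
Hspa5, chr2:34772025-34772043, plus strand: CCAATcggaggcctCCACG
Creld2, chr15:88819520-88819538, minus strand: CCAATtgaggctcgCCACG
Hsp90b1, chr10:86705533-86705551, plus strand: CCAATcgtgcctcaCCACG
Hsp90b1, chr10:86705638-86705656, minus strand: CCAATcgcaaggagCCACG
Calr, chr8:84847075-84847093, plus strand: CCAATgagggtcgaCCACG
Canx, chr11:50325800-50325818, minus strand: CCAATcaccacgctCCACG
Dnajc3, chr14:118937827-118937845, plus strand: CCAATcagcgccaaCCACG
Pdia6, chr12:17266491-17266509, plus strand: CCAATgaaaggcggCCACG
Among these 7 genes the differences on the deposited values ran from -0.43 for Hspa5 and -0.42 for Creld2, through -0.04 for Pdia6, -0.03 for Calr and -0.01 for Hsp90b1, to 0.18 for Dnajc3 and 0.21 for Canx. The genes with the element thus lay on either side of 0. After cyclic loess the differences of the same genes were -0.69, -0.65, -0.27, -0.30, -0.27, -0.06 and -0.07. The shorter ERSE-II (ATTGG, any 1 base, CCACG) was found in Dnajb11 and Herpud1 (2 of 32 members, 0.0444% of genes). The UPR element core TGACGTGG and the composite site TGATGNAAT of ATF4 and C/EBP factors were found in 0 of the 32 members, and in 0.714% and 1.08% of genes. A match is a run of letters and not a measured binding site.

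The windows of Hspa5 and Creld2, the ERSE genes with the lowest means relative to DIO, show the element in place, in capitals. In the Hspa5 window it starts 65 bases before the transcription start. In the Creld2 window it starts 126 bases before the start and reads on the opposite strand.
Hspa5, chr2:34771840-34772139, plus strand: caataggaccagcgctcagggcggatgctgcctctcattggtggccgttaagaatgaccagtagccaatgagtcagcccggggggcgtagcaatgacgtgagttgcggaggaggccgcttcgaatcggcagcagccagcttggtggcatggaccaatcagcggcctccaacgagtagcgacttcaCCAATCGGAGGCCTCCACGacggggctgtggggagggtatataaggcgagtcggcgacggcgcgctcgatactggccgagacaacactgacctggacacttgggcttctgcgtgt
Creld2, chr15:88819396-88819695, plus strand: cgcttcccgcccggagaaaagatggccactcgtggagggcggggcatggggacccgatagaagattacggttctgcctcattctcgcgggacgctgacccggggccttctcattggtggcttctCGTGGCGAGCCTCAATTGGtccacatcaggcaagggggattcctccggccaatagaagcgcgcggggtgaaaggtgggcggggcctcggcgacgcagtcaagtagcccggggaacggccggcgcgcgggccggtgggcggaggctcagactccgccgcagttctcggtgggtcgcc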

How the data were processed

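Liver RNA of 7 mice was fragmented, biotin-labelled and measured on arrays by an Affymetrix protocol, per the labels' protocols; sample titles gave the groups and biological replicate numbers. Per the submitters' processing notes, the deposited log2 values were made with Affymetrix Power Tools and RMA (background correction, normalization across arrays and a summary per gene), with the genome GRCm38 (mm10). Tool versions and array type are not stated there, and neither detection nor scan batches were examined. The number of arrays limits precision.

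Members and gene lists were chosen with earlier results of these data known. The list pairs each of 38 IDs with a symbol, and all 38 symbols were found in the RefSeq table (GRCm38.p6). That table lists 0 Ensembl IDs, so the other pathway and cell type marker lists, written in symbols, were not analysed here.

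With R 4.3.3 and limma 3.58.1, the lowest 40% of 33426 IDs by mean were left out and 20055 were fitted with lmFit and eBayes (group as the sole term, two-sided, Benjamini-Hochberg over all tested IDs), after the fit was tested on simulated data. Members described liver by liver were those with an unadjusted p under 0.05, those without overlap, the 5 with the largest difference in each direction, and Hspa5, Ddit3, Atf4, Xbp1, Hspa1a, Hspa1b and Hsp90aa1. Hyou1, Hspa8 and Chac1 were added after their values were seen, as were a few single values of other members. Alternatives were other filters, normalizations, variance models and weights, a replicate block, and leaving out arrays. Promoter windows came from RefSeq.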

Additional observations from a re-analysis of the deposited data

Results flagged for a closer look

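In the BMJ + DIO group 7 of the 38 members had 1 liver whose distance from the nearest other liver exceeded the 95% critical share of the group's range in Dixon's test for 4 samples. Chance flags about 1 in 20 groups when values do not repeat, and repeated values raise the ratio. The same share over all tested IDs was not computed, so the count cannot be read as an excess in this set. BMJ + DIO replicate 1 was the low liver for Hspa1b (4.12 against 4.88 to 4.98), Hsp90ab1 (9.20 against 9.51 to 9.57), Bag3 (6.61 against 6.86 to 6.91), Sesn2 (3.77 against 3.86 to 3.88) and Dnajb11 (5.71 against 5.98 in the other 3). BMJ + DIO replicate 3 was low for Asns (3.18 against 3.38 in the other 3), and BMJ + DIO replicate 4 was high for Xbp1 (8.11 against 7.98 to 7.99). In 6 of the 7, Hspa1b being the exception, at least 2 of the 4 livers held an identical value. Without BMJ + DIO replicate 1 the difference of Hspa1b was -1.04 (limma, unadjusted p = 0.00936, adjusted p = 0.608).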

How the results depend on the processing

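In limma, 0 members passed the adjusted p of 0.05 in 18 of 19 alternatives, which are 18 other fits and an adjusted threshold of 0.10; gene-by-gene array weights, which gave DIO replicate 2 a weight of 5.51 against 0.261 and 0.109 for the other DIO arrays, called 7 (18.5% of all tested IDs). With no adjusted calls, the counts at an unadjusted p under 0.05 (4 lower, 1 higher) became 12 and 0 after quantile normalization (3.7% and 5.12% of all tested IDs), 11 and 0 after cyclic loess (4.09% and 4.89%), 2 and 1 with median centring (1.9% and 4.4%), 12 and 2 with array weights (13.2% and 22.3%), and 1 and 0 with the replicate block (1.28% and 0.962%). Without 1 array they ran from 1 to 8 lower (1.38% to 8.62% of IDs) and from 0 to 2 higher (1.32% to 20.4%); cyclic loess without 1 DIO array gave 12 to 15 lower (2.72% to 13.1%) and 0 to 1 higher (2.51% to 13.7%). The median deviation of the members in DIO replicate 3, -0.23, became 0.0098 after quantile normalization and 0.088 after cyclic loess, and 0.134 to 0.135 after cyclic loess without DIO replicate 1 or 2; these normalizations by construction take out its low bright values. The number of members with the larger SD in DIO, 30, was 21 to 32 without 1 array, and after cyclic loess 17 without DIO replicate 1 and 16 without DIO replicate 3. Signs turned for Xbp1 (-0.089 with quantile normalization, -0.11 with cyclic loess, and -0.196, -0.093 and -0.046 with cyclic loess without DIO replicate 1, 2 or 3), Canx (-0.019, -0.067, -0.084, -0.084 and -0.038 in the same fits), Dnajb9 (-0.042, -0.074, -0.013 and -0.402 with quantile normalization, cyclic loess, and cyclic loess without DIO replicate 2 or 3, and -0.069 with weights) and Pdia3 (-0.011, -0.0026 and -0.164 with cyclic loess and with cyclic loess without DIO replicate 2 or 3). With cyclic loess without DIO replicate 1 or 2 they also turned for Hspd1 (-0.035 and -0.072) and Hsp90aa1 (0.0054 and 0.033), and without DIO replicate 3 for Atf6 (-0.0049). A count over all tested IDs was not made, and leaving out 1 array gave differences on both sides of 0 for 17 of the 38 members. Of those described liver by liver under the rule for named genes, these were Dnajb9 (-0.352 to 0.620), Pdia3 (-0.111 to 0.580), Atf4 (-0.164 to 0.052) and Hspa1a (-0.140 and 0.017 in the 2 such fits whose filter kept it). The other 13 include Hspa8 (-0.534 to 0.234), Bag3 (-0.400 to 0.058), Dnajb11 (-0.220 to 0.224) and Hsp90b1 (-0.258 to 0.207). Dnajb9 and Pdia3 turned without DIO replicate 3, Atf4 without DIO replicate 1 (0.052) or BMJ + DIO replicate 1 (0.034), and Hspa1a without BMJ + DIO replicate 4. The cause was not tested. Hspa1b, Sdf2l1, Hspa5, Creld2, Ddit3, Hspb1 and Ppp1r15a stayed lower with the juice in every alternative that tested them. Deviations of livers with equal replicate numbers had correlations of -0.36, -0.09 and -0.30. The labels do not say whether equal numbers are paired, and these correlations cannot settle it. The block takes BMJ + DIO replicate 4 out of the comparison. Signal over background was not examined.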
